A study of Mus musculus with 72 samples.

Results

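The 38 microarray probes described here differed between mice with cecal ligation and puncture (CLP) and sham-operated mice in lung and, by a lower limit, in none of 4 other organs. They were chosen from 22504 probes by their medians: the CLP and sham medians differed by at least 0.7 log2 in lung, where the higher median exceeded 7 log2, and by less than 0.4 log2 in spleen, liver, kidney and heart. Probes with a sham median 3 log2 or more above every other organ's were left out. Of the 38 probes, 29 were lower and 9 were higher in CLP lungs. CLP opens the cecum to the abdomen and gives a bacterial peritonitis with sepsis. The mice were C57Bl/6J females in 3 arms, namely sham surgery with saline (sham), CLP with saline (CLP) and CLP with mesenchymal stromal cells (MSC). The MSCs were cultured cells of male C57Bl/6J mice at passages 8 to 11, and 250000 cells, or saline, were infused in 100 µL through a cannula 6 hours after surgery. Organs were taken at 28 hours, so every arm shares strain, sex and an infusion of saline or cells, and no arm received MSCs without CLP. Lung, liver, kidney and heart have 5 mice per arm with labels that carry a mouse number across these organs, and spleen has 4 arrays per arm, where the design text speaks of 4 animals per group.

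The lung meets circulating bacterial products and activated neutrophils early in sepsis, and its thin wall of alveolar epithelium and capillary endothelium loses function when it is injured. Alveolar type 2 cells make surfactant and renew the epithelium under growth factors from neighbouring mesenchymal cells. MSCs given into a vein are largely held back in the lung capillaries.

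The values are log2 intensities of Illumina probes, and the number of arrays limits their precision. The organ was taken from title, source name and description, and the tissue characteristic of most samples differs from these. The organ labels so taken fitted the defining markers that had a clear signal. Surfactant protein gene Sftpb had a sham median of 14.06 in lung and at most 5.29 elsewhere, Umod led in kidney at 15.20 and Serpina1a in liver at 12.01. The cardiac genes Nppa and Myh6, at 15.70 and 15.27 in heart, also reached 9.11 and 7.81 in sham lungs. The liver gene Fgb reached only 5.72 in liver, and a Cr2 probe of the spleen list (ILMN_2696049) read 4.57 to 4.88 in all organs. In 50.3% of the complete table rows the values do not follow the header, and these rows were not used by the rule. Gene names could be given to 33 of the 38 probes, for 32 genes, and the other 5 are named by probe ID. The CLP lung of mouse 107C stood apart from the other 4 CLP lungs in most of what follows, and the member counts, spreads, means and marker calls below are also given without it. The sham and CLP arrays of all organs chose the members, so every CLP minus sham value of a member is a description with no test.

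Cell-surface adhesion and guidance molecules held the largest difference. The probe of Pcdha7, a clustered protocadherin known for cell recognition between neurons, read 7.85, 7.96, 8.12, 8.24 and 8.30 in sham lungs, 5.84, 6.20, 6.29, 6.44 and 7.86 in CLP lungs and 6.79, 7.42, 7.46, 7.92 and 7.95 in MSC lungs. Mouse 107C gave the 7.86 and overlapped the sham lungs, whereas the other 4 CLP lungs lay below every sham and MSC lung. The CLP median was 3.54-fold below the sham median. Pcdha6, its neighbour in the same cluster, had medians of 7.0 in sham, 5.66 in CLP and 6.31 in MSC lungs. Clustered protocadherins share exons and are near copies of each other, so which isoform these probes read is uncertain. Sema4f, a transmembrane semaphorin of the axon guidance family, read 8.28, 8.29, 8.37, 8.51 and 8.53 in sham, 6.20, 6.75, 6.77, 7.53 and 8.00 in CLP and 7.30, 7.56, 7.83, 7.91 and 8.13 in MSC lungs. Its sham and CLP lungs did not overlap, with 107C again the CLP lung nearest sham.

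Ion channels were also among the lower members. Scn3a, which encodes a voltage-gated sodium channel alpha subunit, read 7.49, 7.66, 7.79, 7.87 and 8.05 in sham lungs, 5.81, 5.99, 6.17, 6.46 and 6.96 in CLP lungs and 6.09, 6.43, 6.93, 6.94 and 7.14 in MSC lungs. Both the CLP and the MSC lungs lay wholly below the sham lungs. Piezo2, a cation channel opened by membrane stretch, read 6.96, 7.13, 7.19, 7.34 and 7.74 in sham, 5.74, 5.87, 5.88, 6.20 and 6.85 in CLP and 6.32, 6.35, 6.68, 6.81 and 6.88 in MSC lungs. No CLP or MSC lung reached the lowest sham lung, and 107C was the nearest CLP lung.

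Enzymes and receptors of intracellular signalling differed by smaller steps. Pde5a, the phosphodiesterase that degrades cGMP and that sildenafil inhibits in the pulmonary circulation, read 6.99, 7.0, 7.05, 7.19 and 7.24 in sham, 6.10, 6.14, 6.15, 6.23 and 6.56 in CLP and 6.14, 6.25, 6.57, 6.64 and 6.73 in MSC lungs. The sham lungs stood above all 10 lungs of the other arms. Adcy2, an adenylyl cyclase that makes cAMP, had medians of 8.50, 7.60 and 8.15 in sham, CLP and MSC lungs. Pik3r1, the regulatory p85 alpha subunit of PI3-kinase, was the brightest member, with medians of 11.36, 10.42 and 10.90 in the same order. Stk17b, a serine-threonine kinase abundant in lymphocytes, read 10.05, 10.26, 10.28, 10.33 and 10.63 in sham, 9.14, 9.49, 9.52, 9.54 and 9.63 in CLP and 8.79, 9.17, 9.52, 9.90 and 10.01 in MSC lungs. It is the lower member whose MSC median (9.52) equalled its CLP median (9.52). Il3ra, the alpha chain of the interleukin-3 receptor, had a sham median of 7.37 and a CLP median of 6.61, and its CLP array of mouse 107C (7.37) lay inside the sham range.

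Fgf7 and Cytl1 encode secreted factors. Fgf7, a mesenchymal growth factor that acts on epithelial cells and makes alveolar type 2 cells divide, read 8.66, 8.72, 8.73, 8.76 and 8.98 in sham lungs, 7.72, 7.86, 8.01, 8.44 and 9.11 in CLP lungs and 8.68, 8.95, 9.04, 9.23 and 9.41 in MSC lungs. The 9.11 came from mouse 107C and the other 4 CLP lungs lay below every sham lung, while 3 MSC lungs lay above every sham lung. Cytl1, a small secreted cytokine-like protein, had medians of 8.23, 7.44 and 8.30 in sham, CLP and MSC lungs, so its MSC median was on the far side of the sham median. The third lower member with such an MSC median was Ehd2, an ATPase of the caveolar neck, with medians of 7.95, 7.07 and 8.07, although its MSC lungs spread from 6.92 to 8.43.

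The other lower members with larger differences were 3 unnamed probes (ILMN_2557319, ILMN_1254713 and ILMN_1246900, CLP minus sham -1.62, -1.47 and -1.36), Krtap17-1, a keratin-associated protein gene (-1.59), Itprid1 (-1.51), 8430426J06Rik (-1.19), 1700024G13Rik (-1.11) and Sh3rf2 (-1.05). Krtap17-1 had the widest MSC arm of all members, from 5.82 to 8.07 (SD 0.90, n = 5). The remaining lower members had differences of 0.70 to 0.89 in size. They were ILMN_1242666, the muscle AMP deaminase gene Ampd1, the sulfotransferase gene Chst8, the transcriptional repressor gene Prdm6, and Mamdc2, Mxra7, Zfp365 and Zfp532. The 5 members just inside the limit of 0.7 differed by 0.70 to 0.73 in size, and the 5 probes just outside it, among them Dusp3, Hivep3 and Arhgef26, by 0.65 to 0.70.

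The 9 higher members were led by Tspan11, a tetraspanin of the cell membrane. It read 6.72, 6.95, 7.08, 7.28 and 7.42 in sham lungs, 7.83, 8.19, 8.47, 8.57 and 8.78 in CLP lungs and 7.52, 8.07, 8.21, 8.30 and 8.93 in MSC lungs, so that neither injured arm overlapped sham. The CLP median was 2.61-fold above the sham median. Erich3, a glutamate-rich protein gene, read 7.96, 8.05, 8.06, 8.10 and 8.15 in sham, 8.14, 9.05, 9.21, 9.29 and 9.77 in CLP and 8.17, 8.32, 8.36, 8.37 and 8.51 in MSC lungs. Its 8.14 belongs to mouse 107C, and the other 4 CLP lungs lay above every sham and MSC lung. Cyp2b10, a cytochrome P450 that oxidises drugs and other foreign compounds, read 6.65, 6.85, 6.88, 6.88 and 7.08 in sham, 7.32, 7.44, 7.80, 7.91 and 8.11 in CLP and 7.33, 7.66, 8.08, 8.17 and 8.19 in MSC lungs. It was the member whose MSC median (8.08) went beyond its CLP median (7.80).

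Enzymes that build sugar chains on proteins made up 3 of the 9 higher probes. Galnt1 starts mucin-type O-glycans and was represented by 2 member probes, whose medians were 9.21 in sham, 9.99 in CLP and 9.68 in MSC lungs for ILMN_2625687, and 8.45, 9.25 and 8.85 for ILMN_2625680. Sham and CLP lungs did not overlap for either probe. Fut4, a fucosyltransferase that makes Lewis x structures on myeloid cells, read 7.63, 7.70, 7.73, 7.76 and 8.07 in sham, 7.93, 8.30, 8.56, 8.60 and 9.01 in CLP and 7.51, 7.72, 7.88, 7.91 and 8.17 in MSC lungs. Its MSC lungs spanned the whole range of the sham lungs. Arl11, an ARF-like GTPase, had medians of 8.67, 9.58 and 9.0 in sham, CLP and MSC lungs. The unnamed probe ILMN_3028637 (6.75, 7.89 and 7.15) and Mrps7, a protein of the mitochondrial small ribosomal subunit (9.53, 10.26 and 9.80), completed the group.

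**Figure D1:**
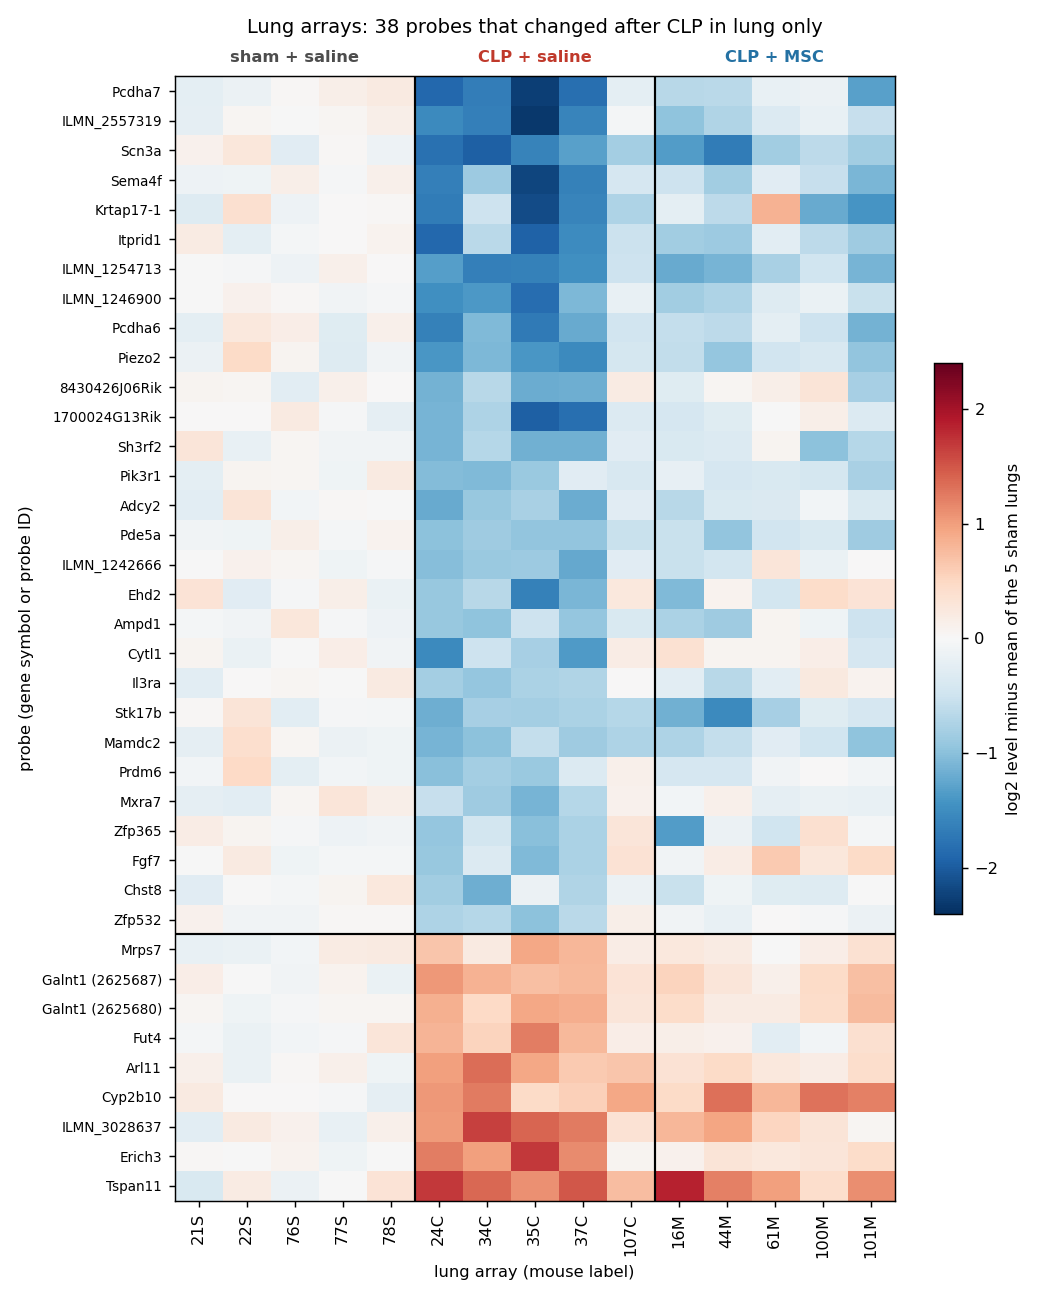
Level of each of the 38 probes (vertical axis, gene symbol or probe ID) in each of the 15 lung arrays (horizontal axis, mouse label), as log2 level minus the mean of the 5 sham lungs, in blue below and red above it. The rows are ordered by CLP median minus sham median from -1.82 (Pcdha7) to 1.39 (Tspan11), the horizontal line parts the 29 lower from the 9 higher probes, and the column of mouse 107C is paler than the other 4 CLP columns in most rows.

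Across the members, CLP and sham lungs did not overlap for 23 of 38 probes (17 of the 29 lower and 6 of the 9 higher), beside 16.8% of the 8684 probes measured in lung, a share from which nothing is read since the rule used these arrays. Without 107C the count was 37 of 38, beside 32.7% of the same probes. The CLP lungs varied more than the sham lungs, with the larger SD for 36 of 38 probes and a median SD of 0.45 against 0.16 log2 (n = 5 each). Without 107C the CLP lungs had the larger SD for 32 of 38 probes, and their median SD was 0.27 (n = 4). Mouse 107C was the highest CLP lung for 26 of the 29 lower members and the lowest for 7 of the 9 higher ones. When each array was summarised by its mean difference from the sham mean over the 29 lower members, sham lungs lay between -0.05 and 0.07, CLP lungs between -1.28 and -0.23 (mean -0.95 ± 0.43 SD, n = 5) and MSC lungs between -0.58 and -0.19 (mean -0.41 ± 0.19 SD, n = 5). The -0.23 was mouse 107C, inside the MSC range, and the other 4 CLP lungs had a mean of -1.14 ± 0.15 SD. Over the 9 higher members the CLP lungs lay between 0.41 and 1.04, again with 107C nearest sham, and the MSC lungs between 0.31 and 0.61. The CLP mean of the higher members was 0.88 ± 0.26 SD (n = 5), and 0.99 ± 0.06 SD (n = 4) without 107C.

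**Figure D2:**
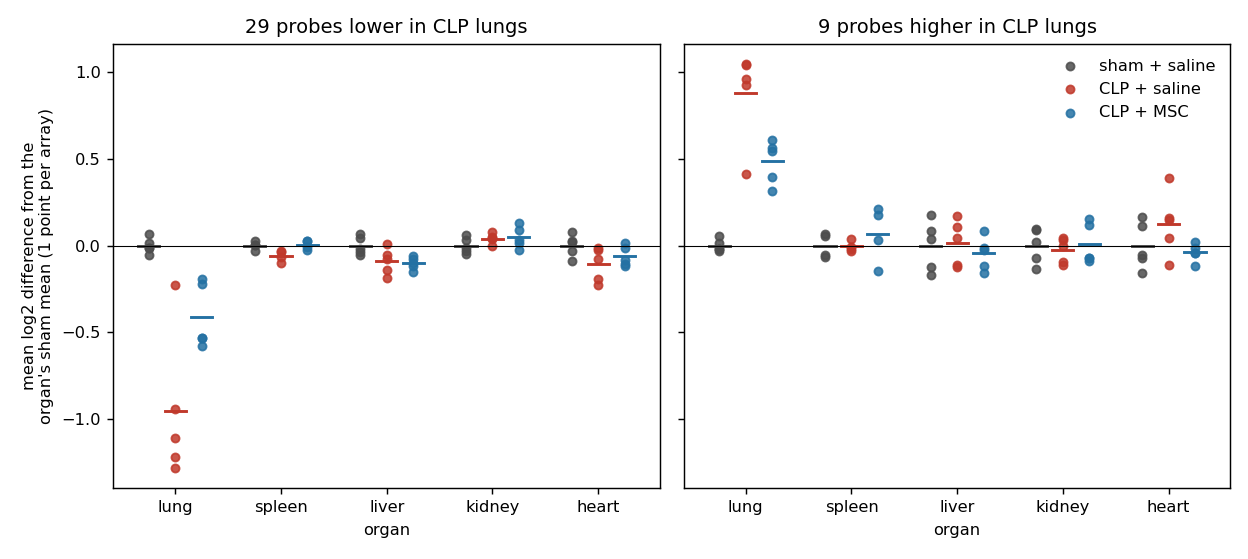
Mean log2 difference from the organ's sham mean (vertical axis) over the 29 lower probes (left) and the 9 higher probes (right), 1 point per array and a bar at the arm's mean, for 5 organs (horizontal axis) and 3 arms (colours). The CLP lungs reach -1.28 on the left and 1.04 on the right. In lung the MSC mean lies between the CLP and sham means, and the CLP lung of mouse 107C lies inside the MSC range in both panels. The lowest value of the lower set in another organ is -0.22, in a CLP heart.

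The members were mainly probes with their highest signal in lung, which the rule favours, since it set a lowest level in lung only. The share of such probes over the whole array was not computed. Among the 4 organs normalised together, sham lung had the highest median for 24 of the 29 lower members and 5 of the 9 higher ones. For the lower members the sham lung median exceeded that of the next organ by a median of 1.42 log2, and by up to 3.10 for Sema4f. A sham median above 6 log2, the level taken as measured, was found in lung for all 38 probes, in spleen for 22, in heart for 18, in liver for 14 and in kidney for 12. Many members therefore had a signal near the floor in the other organs, and a lower level there could not have been seen. Tspan11 (sham medians 4.59 to 5.01 outside lung) and Erich3 (4.56 to 5.11) were of this kind. The medians also hide single arrays, since Erich3 read 4.44, 4.69, 5.42, 6.42 and 8.27 in CLP hearts, where the highest sham heart read 5.71. Members with a clear signal elsewhere included Pik3r1, with sham medians of 10.38 to 12.05 outside lung, Stk17b, at 13.04 in spleen, and Mrps7, at 10.59 to 11.02. Galnt1 stood at 8.44 to 10.29 over its 2 probes, Cytl1 at 9.38 in heart and Chst8 at 8.20 in kidney. ILMN_2557319 (8.96) and Zfp532 (8.09) in heart, Fut4 (8.64) and Arl11 (8.58) in spleen and ILMN_3028637 (8.28) in liver were also of this kind. Levels in spleen were normalised apart from the others and took no part in the ranking of organs. The spleen medians in the counts and ranges above are therefore not strictly on the scale of the other organs.

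**Figure D3:**
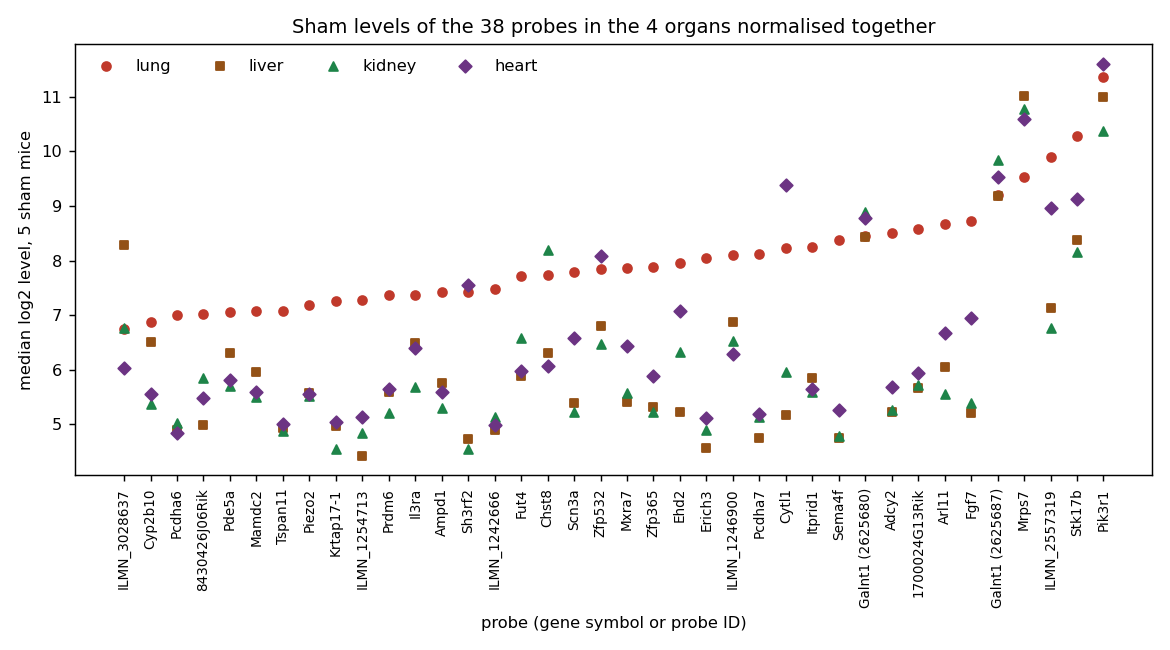
Median log2 level of each probe (horizontal axis, ordered by the lung level) over the 5 sham mice in lung, liver, kidney and heart (symbols), the organs normalised together. Lung is the highest of the 4 for 29 of the 38 probes, and Cytl1 in heart (9.38) and Mrps7 in all 3 other organs (10.59 to 11.02) stand above lung.

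The members shared a chromosome more often than the array as a whole. RefSeq placed 7 of the 32 named genes on chromosome 18, namely Pcdha6, Pcdha7, Piezo2, Sh3rf2, Prdm6, Zfp532 and Galnt1. The same chromosome holds 293 of the 12376 genes with a probe that follows the header (2.37%) and 70 of the 3582 genes with a lung level above 7 (1.95%). Pcdha6 and Pcdha7 belong to a single gene cluster and count as neighbours. The difference was noticed in these data and no test was made of it.

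Other probes of the same genes, which the rule had not chosen, gave a check of the probes but used the same sham and CLP arrays. The series held 40 such probes for 21 genes. Of the 18 that exceeded 7 log2 in lung, 17 had the sign of the member probe and 14 also differed by at least 0.7, with a median size of 0.95. In 8 of the 18, CLP minus sham stayed under 0.4 in all of the other organs, and in 10 it did not. CLP minus sham was -2.27 for a further probe of Pcdha7, -2.11 for Piezo2, -1.54 for 1700024G13Rik, -1.18 for Sema4f, -1.07 for Cytl1, -0.98 for Pde5a and 1.35 for Erich3. The further probe of Piezo2 was -0.77 in liver and -0.51 in heart, and that of Mxra7 -1.13 in heart and -0.76 in spleen. That of Ehd2 was -0.85 in spleen and that of Zfp365 -0.74 in heart. In heart the further probe of Pcdha7 was -0.52 and that of 1700024G13Rik 0.51. For Pik3r1, ILMN_3040050 was only -0.08 in lung but -1.22 in liver and -0.65 in kidney. ILMN_3114641 of the same gene was -0.67 in lung and 0.45 in kidney. Mrps7 was the exception in sign, with a second probe that was lower in CLP lungs (-0.42) and lower in the other organs as well (-0.66 to -1.38). For Cyp2b10 the brighter probe ILMN_2594926 was 0.72 higher in CLP lungs but 2.04 higher in CLP hearts, so that by this probe the gene's change was not limited to lung. Of the 22 probes at or below 7 log2, 16 had the member's sign and 0 differed by 0.7.

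The arrays of the MSC arm took no part in the choice of members and allowed tests. These tests share the sham or CLP arrays that the rule used, and a member chosen for a large CLP minus sham difference has its MSC minus CLP difference partly set by that choice. The MSC median lay between the sham and CLP medians for 33 of 38 members, 25 of the 29 lower and 8 of the 9 higher. As a share of the CLP minus sham difference, the part left in the MSC median was 37.2% at the median of the lower members and 36.6% at that of the higher ones, with a range from -44.4% (Fgf7) to 131% (Cyp2b10).

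For MSC minus CLP in lung, limma with Benjamini-Hochberg adjustment over 8684 probes called 0 of 38 members, beside 0% of all probes tested. Without adjustment 25 members had a p below 0.05, beside 2261 of the 8684 probes. The smallest adjusted p of a member was 0.0708, shared by ILMN_1242666 (0.69 ± 0.17 SE), Erich3 (-0.74 ± 0.20 SE), Arl11 (-0.58 ± 0.12 SE), 1700024G13Rik (1.01 ± 0.24 SE), Fgf7 (0.83 ± 0.21 SE) and Fut4 (-0.64 ± 0.17 SE). Each of these 6 differences pointed from the CLP toward the sham level. Without the CLP lung of mouse 107C the same limma fit called 28 members, and with array weights 23, beside 24.1% and 14.4% of all probes. No other lung, left out by itself, changed the count of 0.

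For MSC minus sham in lung, limma with Benjamini-Hochberg adjustment called 8 of 38 members, 6 lower and 2 higher in MSC lungs. Over all probes tested, 9.11% were called, 4.91% lower and 4.2% higher. All 8 differed from sham in the direction they had in CLP lungs, a direction that the choice of members on the same sham lungs favours. It favours calls as well, so nothing is read from the number of members called beside the share over all probes. The limma estimates were 1.02 ± 0.18 SE for Cyp2b10 (adjusted p = 0.00123), -0.63 ± 0.12 SE for Pde5a (adjusted p = 0.00321), 1.12 ± 0.22 SE for Tspan11 (adjusted p = 0.00384) and -0.94 ± 0.19 SE for ILMN_1254713 (adjusted p = 0.00399). Scn3a was lower by -1.06 ± 0.21 SE (limma adjusted p = 0.00411), Stk17b by -0.83 ± 0.19 SE (limma adjusted p = 0.0105) and Mamdc2 by -0.61 ± 0.14 SE (limma adjusted p = 0.0123). Piezo2 passed narrowly (-0.66 ± 0.20 SE, limma adjusted p = 0.0425) and lost its call in 8 of 15 fits that each left out 1 lung. For all 8, the 5 MSC lungs lay wholly on the same side of the 5 sham lungs, which a call on these same arrays makes likely. Over all probes, called or not, 12.6% showed no such overlap, and nothing is read from the comparison. Without the CLP lung of 107C, which enters this comparison only through the shared estimate of the spread, 17 members were called, beside 12.6% of all probes, and all of the 8 remained.

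The limma estimates of MSC minus sham nearest 0 were 0.05 ± 0.24 SE for Cytl1, 0.06 ± 0.17 SE for Fut4, -0.08 ± 0.15 SE for Zfp532 and -0.10 ± 0.18 SE for Mxra7, with adjusted p-values of 0.80 to 0.94. The estimate was 0.29 ± 0.21 SE for Fgf7, with a limma adjusted p of 0.44. The Galnt1 probes, at 0.43 and 0.41, had limma adjusted p-values of 0.0516 and 0.0624. Of the other probes of member genes, 21 could be tested for MSC minus sham in lung by limma over 20051 probes, where 8.75% of all probes were called, and 2 passed. These were Cyp2b10 (ILMN_2594926, 0.84 ± 0.12 SE, adjusted p = 0.000236) and Piezo2 (ILMN_2510128, -1.04 ± 0.28 SE, adjusted p = 0.0279). The second Pde5a probe did not pass, with an estimate of -0.20 ± 0.21 SE (limma adjusted p = 0.63) beside -0.63 for the member probe. Nor did the second Tspan11 probe, which did not exceed 7 log2 in lung. Its estimate was 0.30 ± 0.28 SE (limma adjusted p = 0.60) beside 1.12 for the member probe. The differences between the probes of a gene were not tested.

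**Figure D4:**
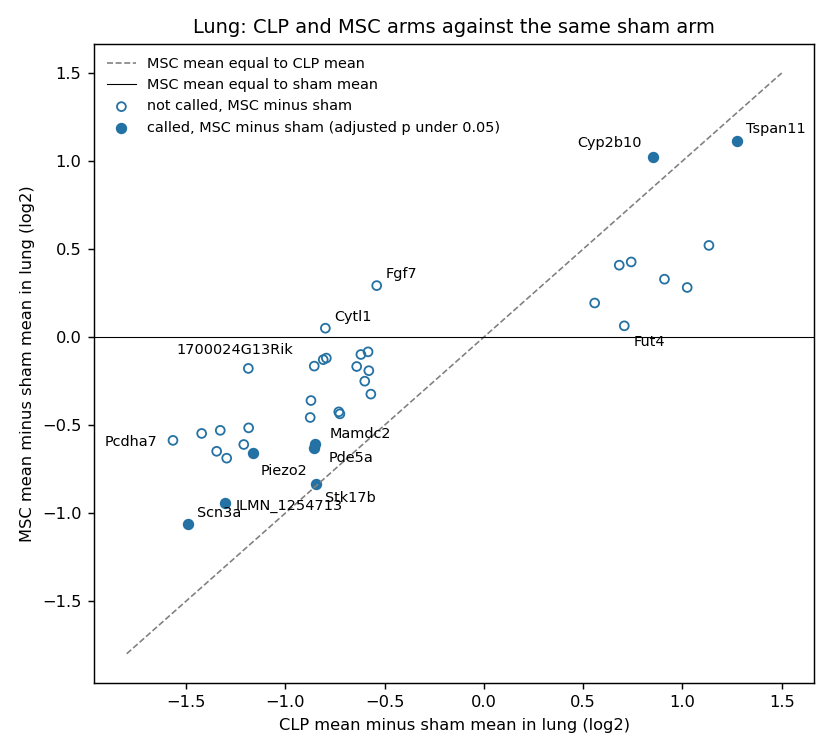
For each of the 38 probes, the MSC mean minus sham mean in lung (vertical axis, log2) against the CLP mean minus sham mean (horizontal axis, log2); both differences use the same 5 sham lungs. Filled points are the 8 probes called by limma for MSC minus sham; points on the dashed line have equal MSC and CLP means (Stk17b), and points on the horizontal line have an MSC mean equal to sham (near it Cytl1 and Fut4).

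The labels carry the mouse across organs, so the MSC minus sham difference in lung was also set against the mean of liver, kidney and heart of the same mouse. The rule had asked for a large CLP minus sham difference in lung and small ones in the other organs, on the same sham arrays. That choice favours calls here, so nothing is read from the count beside the share over all probes. Limma with Benjamini-Hochberg adjustment over the differences within the mouse called 8 of 38 members, beside 8.3% of all probes. They were Pde5a (-0.67 ± 0.14 SE, adjusted p = 0.00769), ILMN_1254713, Scn3a (-1.28 ± 0.28 SE, adjusted p = 0.0122), Stk17b, Mamdc2, Cyp2b10 (1.02 ± 0.25 SE, adjusted p = 0.0186), Tspan11 and Sh3rf2. Of these 8, Tspan11, ILMN_1254713 and Mamdc2 had sham medians under 6 log2 in all 3 of those organs, Pde5a, Scn3a, Cyp2b10 and Sh3rf2 in 2 of the 3, and Stk17b in none. Sh3rf2, a RING finger protein gene, was not called for MSC minus sham in lung alone (-0.46 ± 0.19 SE, limma adjusted p = 0.158). Its estimates in lung and heart were of opposite sign. It had heart medians of 7.55 in sham, 7.71 in CLP and 8.83 in MSC mice, and its MSC minus sham difference in heart was 1.19 ± 0.32 SE (limma adjusted p = 0.0615).

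Within the other organs limma with Benjamini-Hochberg adjustment called few members for MSC minus sham. The rule had asked for small CLP minus sham differences in these organs, on the same sham arrays. Low counts are favoured by that choice, so nothing is read from them. In liver 1 of the 15 members tested passed, beside 20.3% of all probes. This was Zfp532, a zinc finger gene, whose liver values were 6.70, 6.77, 6.80, 6.86 and 6.86 in sham and 6.13, 6.20, 6.31, 6.32 and 6.51 in MSC mice, with no overlap (-0.51 ± 0.13 SE, limma adjusted p = 0.0122). In spleen 0 of 23 members passed, beside 7.53% of all probes, with 3 members at an unadjusted p below 0.05. With the spleen arrays under the labels of the series matrix, limma called 0 members and 0 of the 11048 probes, with 1 member and 387 probes at an unadjusted p below 0.05. In kidney 0 of 12 passed, beside 6.54%, with 0 at an unadjusted p below 0.05, and in heart 0 of 21, beside 2.72%, with 2 at an unadjusted p below 0.05. In spleen Stk17b came nearest, at -0.43 ± 0.13 SE (limma adjusted p = 0.0687).

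Of the gene lists, which were chosen with earlier results of these data known, only that of angiogenic growth factors and receptors held a member, Fgf7. For CLP minus sham in lung, limma called 5 of its 28 tested probes higher and 7 lower, beside 15.9% and 16.5% of all probes. Without 107C the counts were 7 and 10, beside 21.1% and 21.2%. The ligand Fgf10, which shares its receptor with Fgf7, was lower by -0.96 ± 0.19 SE (limma adjusted p = 0.0015), with means of 8.16 in sham, 7.20 in CLP and 7.77 in MSC lungs. Probes of that receptor gene, Fgfr2, gave -0.39, -0.26 and 0.09. Both Fgf10 and Fgfr2 were picked after their values were seen.

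Markers of several lung cell types also differed between the same lungs. Of the tested probes, limma called lower in CLP than in sham lungs 5 of 8 for alveolar type 2 cells, 1 of 2 for alveolar type 1 cells, 4 of 5 for club and ciliated cells, 3 of 11 for endothelial cells, 5 of 12 for fibroblasts and smooth muscle, 7 of 7 for B cells, 3 of 8 for T cells, 1 of 1 for NK cells and 1 of 2 for red blood cells. Neutrophil probes were called higher in 4 of 7, and 1 of the 12 fibroblast and smooth muscle probes was higher. In the same limma fit 0 of 3 monocyte probes and 0 of 1 alveolar macrophage probes passed, with 2 and 0 at an unadjusted p below 0.05. The median change of the endothelial list was -0.21, beside -0.54 for alveolar type 2 cells and -1.21 for B cells. Without 107C, limma called 6 alveolar type 2, 2 alveolar type 1, 4 club and ciliated, 4 endothelial, 6 fibroblast and smooth muscle, 7 B-cell and 3 T-cell probes lower, and 4 neutrophil, 2 monocyte, 2 endothelial, 2 fibroblast and smooth muscle and 1 T-cell probe higher. The mean level over the alveolar type 2 list ranged from 12.89 to 13.10 in sham lungs, from 12.22 to 12.998 in CLP lungs, where 107C held the 12.998, and from 12.76 to 13.14 in MSC lungs. The B-cell list ranged from 9.70 to 10.30 in sham, 8.47 to 8.97 in CLP and 8.34 to 8.94 in MSC lungs, and the neutrophil list from 7.34 to 7.99, 8.84 to 9.66 and 8.96 to 10.09. For these last lists the MSC lungs overlapped the CLP lungs and not the sham lungs, and 107C read 8.70 on the B-cell list and 8.97 on the neutrophil list. In whole-organ RNA, fewer cells of a type and less RNA per cell cannot be told apart, and the part of these shifts in the members' changes was not tested.

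RefSeq promoter sequences (build GRCm38.p6) were at hand for 21 of the 32 member genes, and 4 are shown for members on which the results turn. They are the 250 bases before the gene start of Sema4f (chr6:82939770-82940019, minus strand), Pde5a (chr3:122728908-122729157, plus strand), Fgf7 (chr2:126034408-126034657, plus strand) and Erich3 (chr3:154710883-154711132, plus strand), read 5′ to 3′ along the gene, with searched motifs in capitals.
Sema4f: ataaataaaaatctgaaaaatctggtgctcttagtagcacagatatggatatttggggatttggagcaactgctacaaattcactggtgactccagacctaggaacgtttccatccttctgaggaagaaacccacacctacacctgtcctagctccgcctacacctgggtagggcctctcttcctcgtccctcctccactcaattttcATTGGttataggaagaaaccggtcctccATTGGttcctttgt
Pde5a: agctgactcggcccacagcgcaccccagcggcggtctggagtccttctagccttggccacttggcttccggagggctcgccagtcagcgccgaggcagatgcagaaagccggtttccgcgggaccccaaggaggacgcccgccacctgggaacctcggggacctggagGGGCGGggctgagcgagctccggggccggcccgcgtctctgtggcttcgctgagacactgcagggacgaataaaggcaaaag
Fgf7: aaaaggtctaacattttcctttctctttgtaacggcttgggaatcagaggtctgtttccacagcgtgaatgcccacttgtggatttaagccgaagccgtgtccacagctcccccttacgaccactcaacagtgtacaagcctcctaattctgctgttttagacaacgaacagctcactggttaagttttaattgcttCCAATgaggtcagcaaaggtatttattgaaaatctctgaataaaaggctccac
Erich3: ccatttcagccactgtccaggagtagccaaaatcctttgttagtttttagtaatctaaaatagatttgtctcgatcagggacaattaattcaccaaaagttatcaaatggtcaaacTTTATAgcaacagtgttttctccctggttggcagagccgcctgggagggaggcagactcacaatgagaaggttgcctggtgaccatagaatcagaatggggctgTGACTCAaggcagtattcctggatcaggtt
Sema4f carries the CCAAT box, on the opposite strand, at -42 and -14 from the start, and Fgf7 carries it at -53. Pde5a has a GC box at -82, and Erich3 a TATA box, on the opposite strand, at -134 and an AP-1 site at -30. The CCAAT box is itself the searched letters, and both strands were also searched for GGGCGG (GC box), TGANTCA (AP-1), TTCNNNGAA (STAT), TGACGTCA (cAMP response element), TGTTTAC (forkhead) and CACGTG (E-box). The letters searched for the TATA box itself were TATAAA. The CCAAT box was found in 9 of 15 promoters of lower members and 0 of 6 of higher members, and in 37.5% of all 27025 promoters. The GC box was found in 10 of 15 and 2 of 6, and in 35.4% of all. The cAMP response element was found in 0 of the 21, beside 1.77% of all promoters. With 21 promoters these are descriptions of letters in a window, and nothing follows from them about the factors.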

How the data were processed

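The study ran 72 Illumina arrays, 1 per organ sample, on biotin-labelled cRNA, per the labels' protocols. The deposited values are log2 intensities, judged by their range, and no source used here names the authors' software or background correction. The 12 spleen arrays share 1 set of sorted log2 values, and the 60 other deposited arrays share another, which is what separate quantile normalisation leaves. Of 45255 complete rows, 22751 are offset by 12 columns. In the deposited series matrix the 60 arrays outside spleen hold the same log2 values apart from 1 shift per probe. Between both deposits, 7 of the 12 spleen columns stand under another label, 2 of them in another arm. The sources do not settle which is right, so spleen values hold under the table's labels, and all 38 members still met the rule under the matrix's labels.

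Rows that follow the header were tested with lmFit and eBayes (limma 3.58.1, R 4.3.3) on 3 arms, with Benjamini-Hochberg adjustment over all probes that exceeded 6 log2 in at least 5 arrays (4 in spleen), at an adjusted p of 0.05. The labels give liver, lung, kidney and heart of a mouse the same number, and that mouse is the block of the comparison between organs. Between arms no lung replicate is paired. On simulated data for MSC minus sham in lung (8684 probes, 200 changed), the fit recovered 94% of changes of 1 log2 and 99% of changes of 2 log2. Gene names came from the platform annotation, updated through Entrez IDs to RefSeq. Of the 22504 probes, 17370 have 1 name, 7 several and 5127 none.

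Members and gene lists were chosen with earlier results of these data known. Named were the 15 largest differences in each direction, members on a list, members sharing a gene, and the smallest adjusted p-values of each test; other names are given as picked later. Alternatives were other probe filters, a common 75th percentile, only the compared arms, array weights, trend and robust settings, left-out lungs, and other limits of the rule. Use of every matrix probe, the matrix's spleen labels and the omission of mouse 107C from every organ (or of its lung from spreads and marker lists) or of a sham heart were added after the data had been seen.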

Additional observations from a re-analysis of the deposited data

Results flagged for a closer look

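The 3 lung arms of each member and of the 2 mean differences gave 120 groups of 5 arrays. In 8 of them 1 array stood far from the rest by Dixon's test, where chance alone flags about 1 in 20, or 6 of 120. The sham and CLP arrays also chose the members, so these values are a description. Mouse 107C was that array in 4 of the 8, each among the CLP lungs. Its probe ILMN_1254713 read 6.79 with the next CLP lung at 5.96, Pde5a read 6.56 with the next at 6.23, Il3ra read 7.37 with the next at 6.65, and the mean difference over the 9 higher members was 0.41 with the next at 0.92. The other such CLP value was Stk17b at 9.14 in mouse 24C, below the next lowest at 9.49. Among the sham lungs, mouse 76S had a low 8430426J06Rik (6.71, next 6.98) and a high Ampd1 (7.75, next 7.44), and mouse 22S had a high Prdm6 (7.91, next 7.37).

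For 8 members the MSC minus sham difference in lung departed from that in the mean of liver, kidney and heart of the same mice, by limma on the differences within the mouse. The choice of members on the same sham arrays favours such departures. The lung excess was 1.02 for Cyp2b10 and 1.07 for Tspan11. It was -1.28 for Scn3a, -1.05 for ILMN_1254713, -0.81 for Sh3rf2, -0.77 for Stk17b, -0.67 for Pde5a and -0.62 for Mamdc2. In lung alone Sh3rf2 was not called (-0.46 ± 0.19 SE, limma adjusted p = 0.158). The calls of Cyp2b10, Tspan11 and Sh3rf2 were lost in 1, 3 and 2 of the 15 fits that left out 1 mouse.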

How the results depend on the processing

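Among the members called and recomputed, none changed its direction. Array weights gave 23 members called for MSC minus CLP in lung, 19 for MSC minus sham in lung, 17 for lung against the other organs, 3 in spleen, 3 in liver and 2 in heart, beside 14.4%, 17.5%, 17.4%, 19.98%, 33.4% and 15.3% of all probes. Leaving out each lung in turn gave 0 to 28, 7 to 17 and 6 to 13 for the first 3 of these. The shares of all probes ran from 0% to 24.1%, 6.3% to 12.6% and 4.1% to 11.2%. Each upper end was the fit without the CLP lung of mouse 107C. With only the compared arms the counts were 19 for MSC minus sham in lung and 2 in liver, beside 16.1% and 29.1% of all probes. A common 75th percentile gave 1 in heart, beside 2.77% of all probes, and a filter of 7 log2 gave 0 in liver, beside 28.5%. Without the replicate block, 60 arrays taken as independent gave 5 members for lung against the other organs, beside 2.13% of all probes. The difference within the mouse gave 8, beside 8.3%. The counts thus moved together with the calls over the whole array, and nothing is read from them about the members. Limits of 0.8 and 0.3 left 13 members, a level above 8 left 18, and every complete probe of the series matrix gave 107, of which 35 were among the 38. Leaving out 1 lung gave 31 to 49 members, leaving out mouse 107C in every organ gave 44, of which 31 were among the 38, and means in place of medians gave 38, of which 24 were shared.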

Other observations

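Rows whose values are offset from the header could be read in the series matrix, which is keyed by sample, and 59 of them met the same rule there, 45 lower and 14 higher in CLP lungs, with 7 of the 59 being further probes of member genes. They are given as values with no test, and were picked from the list after they had been seen. Lower in CLP lungs were Gja5, a gap junction connexin (CLP minus sham -1.81), Clec1a, a C-type lectin receptor (-1.56), Akap14, an anchoring protein of protein kinase A (-1.37), Acvrl1, a BMP receptor (-1.29), Morn3 (-1.22 and -1.21 for 2 probes), Cfap157 (-0.99), Ace, the angiotensin-converting enzyme (-0.91), and the chemokine receptor gene Cxcr4 (-0.71). The largest higher values belonged to Mpo (1.87) and Elane (1.82), which encode granule enzymes made by neutrophil precursors, followed among named genes outside the member set by Dll1 (0.94), a Notch ligand, while Smad6, an inhibitor of BMP signalling, was 0.75 higher. The neutrophil marker list was higher in the same CLP lungs, and its part in these values was not tested.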
